A study of Mus musculus with 4 samples.

Results

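The tumour necrosis factor (TNF) ligand and receptor genes described here are 10 genes of 55536 annotated in mouse bone-marrow-derived macrophages: the ligands Tnf, Tnfsf9, Tnfsf10 and Tnfsf13b, the receptors Tnfrsf1a, Tnfrsf1b, Fas and Tnfrsf11a, and the receptor adaptors Traf1 and Traf2. They were chosen by symbol, and all 10 were found, each as 1 gene. RNA was measured by polyA RNA-seq in 4 libraries of 1 group. Per the labels, macrophages grown from bone marrow of C57BL/6J mice received lipid A, the membrane anchor of bacterial endotoxin, at 100 ng/ml for 12 h. It was then washed away for 12 h, and cells were harvested at 0 min of a second dose of 100 ng/ml. Another label field calls the pretreatment lipoprotein A, and sex and age were not recorded. All 4 libraries share that treatment. Untreated or restimulated cells were not analysed here, and the values below are therefore levels, not effects of lipid A.

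The labels number the libraries as biological replicates 1 to 4, each a biosample of its own but all of 1 donor identifier. The p-values given here therefore reflect only how far these libraries spread. In the notes deposited with the tables, replicates 3 and 4 have 4 read files each, and replicates 1 and 2 have 6. Gene counts totalled 48875472 and 57126810 in replicates 3 and 4, against 25594340 and 27384162 in replicates 1 and 2. Mitochondrial genes held 3.34% and 3.00% of the counts in replicates 3 and 4, against 0.778% and 1.16% in replicates 1 and 2. All 8 macrophage markers, among them Adgre1 and Csf1r, averaged at least 100 TPM (TPM are transcripts scaled by length to a fixed total in each library). Among markers of other cells, 0 of 6 for T and NK cells and 0 of 5 for fibroblasts reached a mean of 1 TPM, against 1 of 6 for neutrophils, 2 of 6 for B cells and 1 of 5 for dendritic cells. The neutrophil marker above 1 TPM was S100a8, also made by activated macrophages, with 20.7 and 2.31 TPM in replicates 3 and 4, against 34.8 and 4.67 TPM in replicates 1 and 2, and its part in the values below was not tested. Ly6g, a defining neutrophil gene, had no count in any library.

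Ligands of the TNF superfamily are made as trimers on the cell surface, and several are cut from it into a soluble form. They cluster their receptors, which have no enzyme activity of their own. Receptors with a death domain, such as those encoded by Tnfrsf1a (TNFR1) and Fas, recruit adaptors that can lead to inflammatory signalling or to cell death. Receptors without one, such as those of Tnfrsf1b (TNFR2) and Tnfrsf11a (RANK), bind TRAF proteins, which activate NF-kB and MAP kinases. In macrophages Tnf is a classical early product of endotoxin signalling, and cells exposed to endotoxin before are known for a weaker Tnf response to a later dose.

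Promoter sequences were matched by symbol for 9 of the 10 genes, all but Tnfsf9. They are from RefSeq (GRCm38.p6) and are given for the most abundant ligand, the pair of TNF receptors and the other death receptor, as the 250 bases before the RefSeq start of the gene, 5′ to 3′ on its strand. For Tnfrsf1a that start, base 125349723, is the first base of the transcript Tnfrsf1a-201 and lies inside the GENCODE M21 bounds of the gene given below. Capitals mark matches, on either strand, to the motifs searched.
Tnf (chr17:35202008-35202257, minus strand): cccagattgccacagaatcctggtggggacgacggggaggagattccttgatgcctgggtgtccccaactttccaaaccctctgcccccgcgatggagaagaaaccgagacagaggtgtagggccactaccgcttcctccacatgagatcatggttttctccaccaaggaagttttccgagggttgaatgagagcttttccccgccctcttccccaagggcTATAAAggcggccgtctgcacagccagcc
Tnfrsf1b (chr4:145246871-145247120, minus strand): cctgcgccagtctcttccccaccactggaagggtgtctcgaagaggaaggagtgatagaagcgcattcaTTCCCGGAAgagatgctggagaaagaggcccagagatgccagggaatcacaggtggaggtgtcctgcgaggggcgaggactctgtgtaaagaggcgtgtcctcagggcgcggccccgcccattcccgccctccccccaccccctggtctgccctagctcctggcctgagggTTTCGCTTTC
Tnfrsf1a (chr6:125349473-125349722, plus strand): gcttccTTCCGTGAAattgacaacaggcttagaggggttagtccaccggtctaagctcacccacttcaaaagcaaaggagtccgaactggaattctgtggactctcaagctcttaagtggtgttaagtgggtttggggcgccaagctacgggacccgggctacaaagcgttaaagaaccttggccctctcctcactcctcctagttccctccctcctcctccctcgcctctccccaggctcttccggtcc
Fas (chr19:34290409-34290658, plus strand): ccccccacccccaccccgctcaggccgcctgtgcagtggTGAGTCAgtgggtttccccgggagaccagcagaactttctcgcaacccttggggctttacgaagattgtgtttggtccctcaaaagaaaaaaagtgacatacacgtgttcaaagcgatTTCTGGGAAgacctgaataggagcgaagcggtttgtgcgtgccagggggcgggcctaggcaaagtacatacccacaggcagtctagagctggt
The motifs were TGANTCA (a form bound by AP-1), TGACGTCA (by CREB and ATF factors), GAAA followed after any 2 bases by GAAA (by interferon regulatory factors), TTCNNNGAA (by STAT factors), TATAAA and the consensus for NF-kB. That consensus was GGG, a purine, any 2 bases, 2 pyrimidines and CC. In the 250 bases, TATAAA matched only Tnf among the 9 genes, 29 to 24 bases before the start, and matched 12.4% of all 32851 promoters of the table. TTCNNNGAA, held by 7.02% of all promoters, matched Tnfrsf1b, Tnfrsf1a and Fas. TGANTCA, held by 6.75% of all promoters, matched Fas and Tnfsf13b. The spaced GAAA repeat, held by 2.98%, matched Tnfrsf1b and Tnfsf13b. Both matches of Tnfsf13b lay before its later RefSeq start, in chr8:10006383-10006632. The window before its earlier RefSeq start, chr8:10006217-10006466, matched no motif. TGACGTCA, held by 1.55%, and the NF-kB consensus, held by 7.25%, matched none of the 9 genes. In these letters no motif overlapped another. A match, or the lack of one, is a description of the letters in this window. Sites of another form, or farther before the start, were not searched.

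RNA for the TNF receptors and for TNF itself led the group. By mean TPM, 8 of the 10 genes stood at 10 TPM or more and 3, Tnfrsf1b, Tnf and Tnfrsf1a, at 100 TPM or more. The summed TPM of the 10 genes was 676.2 and 708.9 in replicates 3 and 4, against 1030.9 and 1279.2 in replicates 1 and 2. The 4 receptors held 78.1% and 71.0% of that sum in replicates 3 and 4, against 70.5% and 55.8% in replicates 1 and 2. The 4 ligands held 17.8% and 22.9% in replicates 3 and 4, against 24.7% and 34.3% in replicates 1 and 2, most of it Tnf. Tnfrsf1b alone held between 40.0% and 50.9% in the 4 libraries.

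**Figure D1:**
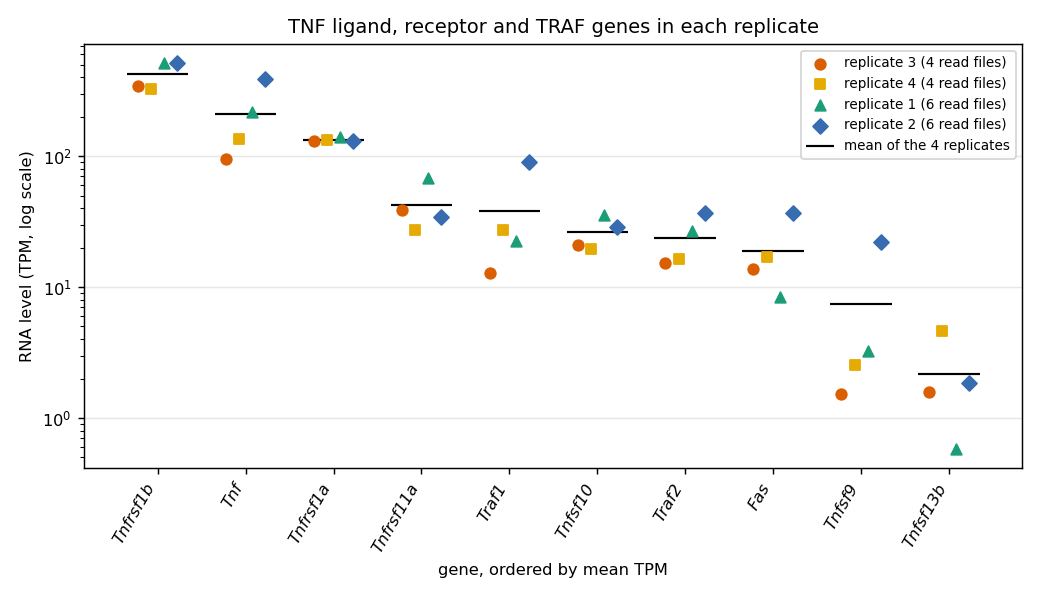
RNA level in TPM (log scale) of the 10 genes, ordered by mean, in replicates 3, 4, 1 and 2, with black bars at the mean of the 4 replicates. Means run from 423.2 TPM for Tnfrsf1b to 2.16 TPM for Tnfsf13b; the replicates nearly coincide for Tnfrsf1a and spread widely for Traf1, Fas, Tnfsf9 and Tnfsf13b.

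In the order of mean TPM the genes ran Tnfrsf1b, Tnf, Tnfrsf1a, Tnfrsf11a, Traf1, Tnfsf10, Traf2, Fas, Tnfsf9 and Tnfsf13b. Between neighbours, the ranges over the libraries were separate only between Tnfrsf1a and Tnfrsf11a. Tnfrsf1b was above Tnf in 4 of 4 libraries and Fas above Tnfsf9 in 4 of 4, although their ranges over libraries overlapped. The other neighbours exchanged places in 1 or 2 libraries. Every library thus placed the 3 abundant genes above the other 7, and among the 7 no neighbours had separate ranges.

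Tnf (ENSMUSG00000024401.14, chr17:35199381-35202007, minus strand, mm10) encodes the ligand of both TNF receptors. It stood at 95.9 and 135.7 TPM in replicates 3 and 4, against 215.8 and 385.8 TPM in replicates 1 and 2 (mean 208.3 ± 128.4 TPM, SD, n = 4). The mean exceeded that of 93.5% of the 10476 genes with at least 1 TPM in every library. Replicates 3 and 4 were low and the ranges of the pairs of libraries did not overlap. Nearly all of it was the longer of its 2 coding transcripts (1639 nt), with 100.0% of the gene TPM in 3 libraries and 99.9% in replicate 2.

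Tnfsf10 (ENSMUSG00000039304.11, chr3:27317028-27342427, plus strand) encodes TRAIL, a ligand that induces apoptosis through death receptors. It stood at 21.0 and 19.5 TPM in replicates 3 and 4, against 35.6 and 28.6 TPM in replicates 1 and 2 (mean 26.2 ± 7.41 TPM, n = 4), again without overlap. Tnfsf9 (ENSMUSG00000035678.8, chr17:57105325-57107757, plus strand) encodes the ligand of Tnfrsf9, a costimulatory receptor of T cells. It stood at 1.52 and 2.53 TPM in replicates 3 and 4, against 3.23 and 22.2 TPM in replicates 1 and 2 (mean 7.37 ± 9.92 TPM, n = 4). Replicate 2 was far above the other 3 libraries, and the coefficient of variation, 134.5%, was the highest of the 10 genes. Without replicate 2 the mean was 2.43 TPM. The level rested on 54 and 105 counts in replicates 3 and 4, against 57 and 425 counts in replicates 1 and 2.

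Tnfsf13b (ENSMUSG00000031497.9, chr8:10006467-10039072, plus strand) encodes BAFF, a survival factor of B cells. It was the lowest of the 10 genes, with 1.58 and 4.65 TPM in replicates 3 and 4, against 0.58 and 1.84 TPM in replicates 1 and 2 (mean 2.16 ± 1.75 TPM, n = 4). These levels rested on 76 and 240 counts in replicates 3 and 4, against 18 and 63 counts in replicates 1 and 2. Replicate 4 was high and replicate 1 low, so the pairs of libraries overlapped, and without replicate 4 the mean was 1.33 TPM. By mean share the leading annotated transcript was Tnfsf13b-205, of the nonsense-mediated decay class. It held a mean of 56.3% ± 25.4 of the gene TPM (SD, n = 4) and 66.0% in the second quantification. In replicate 4, with the most counts, it held 26.8%, below the 37.6% of Tnfsf13b-206. The second quantification gave them 46.5% and 17.4% there. At this depth the shares of the 6 transcripts of Tnfsf13b were not well determined.

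Tnfrsf1b (ENSMUSG00000028599.10, chr4:145213463-145246870, minus strand) encodes TNFR2. It had 344.0 and 325.7 TPM in replicates 3 and 4, against 510.8 and 512.3 TPM in replicates 1 and 2 (mean 423.2 ± 102.3 TPM, n = 4), above 96.9% of the genes with at least 1 TPM in every library. The members of each pair of libraries were close to each other and the pairs did not overlap. The second set of deposited tables, with the column layout of kallisto, gave 341.0 and 323.1 TPM in replicates 3 and 4, against 359.2 and 363.4 TPM in replicates 1 and 2. The gap between the pairs in TPM was thus much smaller there. On that scale its log2 fold change from limma, replicates 3 and 4 over replicates 1 and 2, was -0.12. The median of all tested genes on the same scale was 0.32. From edgeR on the kallisto-layout counts the log2 fold change was -0.57, beside -0.58 on the first tables.

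Tnfrsf1a (ENSMUSG00000030341.17, chr6:125349362-125362484, plus strand) encodes TNFR1, the death domain receptor of TNF. It was the steadiest of the 10 genes, with 131.4 and 133.2 TPM in replicates 3 and 4, against 139.1 and 130.9 TPM in replicates 1 and 2 (mean 133.6 ± 3.77 TPM, n = 4) and a coefficient of variation of 2.82%. That steadiness belonged to the first tables. In the kallisto layout it had 139.2 and 135.0 TPM in replicates 3 and 4, against 101.6 and 98.6 TPM in replicates 1 and 2, with no overlap. Over all 11984 tested genes with both values, the kallisto-layout TPM were higher in both replicates 3 and 4 than in replicates 1 and 2 for 53.6%, and lower for 11.4%.

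Fas (ENSMUSG00000024778.13, chr19:34290666-34327772, plus strand), the receptor of Fas ligand, stood at 13.8 and 17.0 TPM in replicates 3 and 4, against 8.42 and 36.7 TPM in replicates 1 and 2 (mean 19.0 ± 12.3 TPM, n = 4). Replicates 1 and 2 enclosed the other libraries. Tnfrsf11a (ENSMUSG00000026321.7, chr1:105780718-105847981, plus strand) encodes RANK, the receptor for the ligand that drives osteoclast formation. It stood at 38.8 and 27.2 TPM in replicates 3 and 4, against 68.3 and 34.1 TPM in replicates 1 and 2 (mean 42.1 ± 18.1 TPM, n = 4), with replicate 1 high. The osteoclast markers, of which 2 of 6 averaged at least 1 TPM, summed to 46.5 and 30.5 TPM in replicates 3 and 4, against 80.5 and 33.0 TPM in replicates 1 and 2. Nearly all of that sum was Acp5, an acid phosphatase also made by macrophages, with 45.0 and 27.9 TPM in replicates 3 and 4, against 76.4 and 28.5 TPM in replicates 1 and 2. Calcr, a defining marker, had no count, and Dcstamp was at most 0.15 TPM. In bulk RNA, fewer cells of a type and less RNA per cell cannot be told apart, and the part of such cells in the Tnfrsf11a values was not tested.

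Traf1 (ENSMUSG00000026875.14, chr2:34941750-34961772, minus strand) encodes an adaptor that pairs with TRAF2 at TNFR2 and is itself an NF-kB target. It stood at 12.8 and 27.1 TPM in replicates 3 and 4, against 22.4 and 89.7 TPM in replicates 1 and 2 (mean 38.0 ± 35.0 TPM, n = 4). Replicate 2 was high, and replicate 4 was above replicate 1. Without replicate 2 the mean was 20.8 TPM, below the 25.4 TPM of Tnfsf10 in the same 3 libraries. Traf2 (ENSMUSG00000026942.13, chr2:25517982-25546940, minus strand) encodes the adaptor and ubiquitin ligase scaffold that joins TNF receptors to IAP proteins. It stood at 15.4 and 16.3 TPM in replicates 3 and 4, against 26.8 and 37.0 TPM in replicates 1 and 2 (mean 23.9 ± 10.2 TPM, n = 4), without overlap. Annotated genes overlap Traf2 (Gm13433), Fas (Gm27818), Tnfsf9 (Gm11110) and Tnfsf13b (Gm44789). No source used here says whether counting took the strand into account, so reads of these genes may not be fully separated.

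Genes that share a ligand, a complex or a class were set against each other within each library, as 5 pairs on log2((TPM + 1)/(TPM + 1)). With 4 libraries a two-sided exact sign-flip permutation test cannot give a p below 0.13, so no pair could pass 0.05. Tnfrsf1b was above Tnfrsf1a by 1.38 and 1.28 in replicates 3 and 4, against 1.87 and 1.96 in replicates 1 and 2 on the log2 scale. The mean was 1.62 ± 0.34 (SD, n = 4), or 3.08-fold, with an exact p of 0.13 and 0.156 after Benjamini-Hochberg adjustment over the 5 pairs. TNFR2 RNA was thus above TNFR1 RNA in 4 of 4 libraries. Fas was below Tnfrsf1a in 4 of 4, with a log2 ratio of -2.94 ± 0.87 and the same exact p-values. Tnf was above Tnfsf9 in 4 of 4 by 5.07 ± 0.70 and above Tnfsf13b in 4 of 4 by 6.00 ± 1.29, again with those exact p-values. With a pseudocount of 0.1 in place of 1 the Tnfsf13b ratio was 6.66. Traf1 and Traf2 had no fixed order, as Traf1 was the higher in 2 of 4 libraries, with a mean log2 ratio of 0.37 ± 0.74 and an exact p of 0.5, also 0.5 after adjustment.

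Replicates with the same number of read files were set against each other. Ratios are of CPM, counts relative to the library total, scaled by TMM, which aligns libraries on the bulk of genes. Replicate 2 differed from replicate 1 at least 2-fold for 5 of the 10 genes, against 8.16% of the 11991 genes tested. Of these, Tnfsf9 was 5.77-fold, Fas 4.01-fold, Traf1 3.39-fold and Tnfsf13b 2.71-fold higher in replicate 2. Tnfrsf11a was lower there, at 0.418 of its CPM in replicate 1. Replicate 4 differed from replicate 3 at least 2-fold for 2 of the 10 genes, against 3.85% of all tested genes. These were Traf1, 2.06-fold higher in replicate 4, and Tnfsf13b, 2.65-fold higher. With 1 library on each side these ratios have no test.

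**Figure D2:**
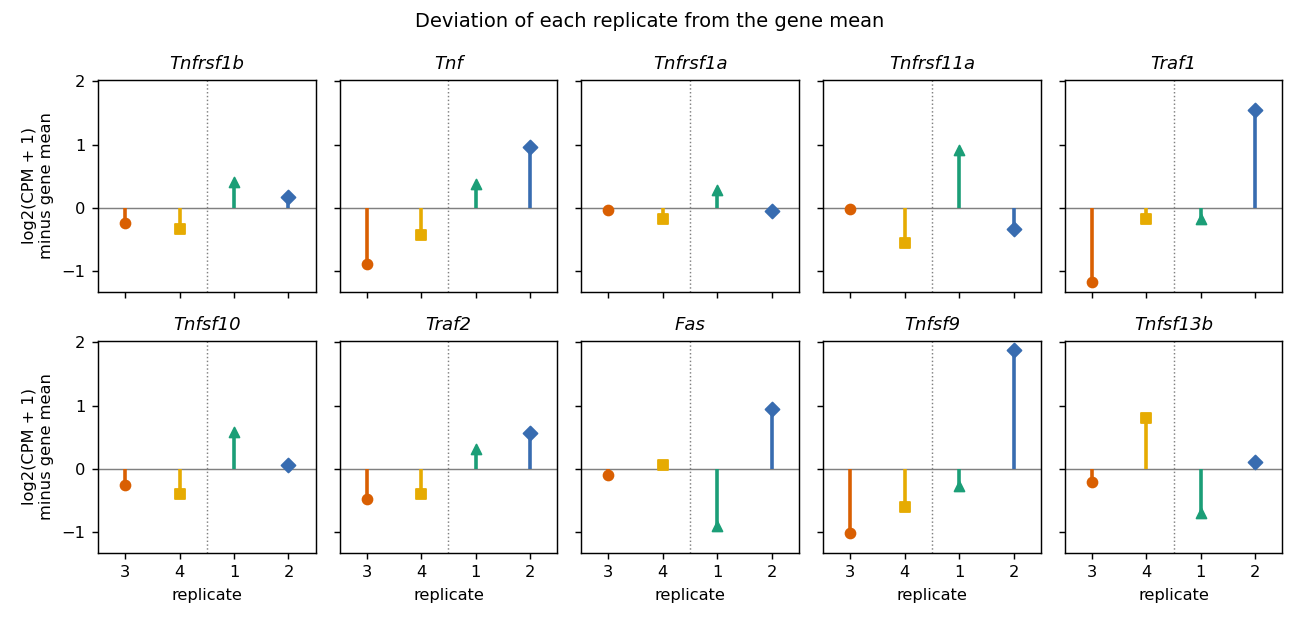
Deviation of each replicate from the gene mean, in log2(CPM + 1), for the 10 genes in replicates 3, 4, 1 and 2, with a dotted line between the pairs of libraries. Tnf, Traf2, Tnfrsf1b and Tnfsf10 lie below their mean in replicates 3 and 4 and above it in replicates 1 and 2, whereas Tnfsf9 and Traf1 stand out in replicate 2, Fas in both replicates 1 and 2 with opposite sign, and Tnfrsf11a in replicate 1.

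The number of read files is a recorded technical difference that splits the libraries 2 against 2, and no source used here says why the numbers differ. On this ground replicates 3 and 4 were set against replicates 1 and 2, as a comparison of libraries and not of conditions. In TPM, replicates 3 and 4 were both below replicates 1 and 2 for 5 of the 10 genes (Tnf, Tnfsf9, Tnfsf10, Tnfrsf1b and Traf2). Of all tested genes, 26.9% were below in this way. In CPM the same 5 genes were below, against 30.1% of all tested genes. In kallisto-layout TPM 3 genes were below (Tnf, Tnfrsf1b and Traf2), against the 11.4% given above for all tested genes, and 2 above (Tnfrsf1a and Tnfsf13b), against 53.6%.

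All 10 genes passed the filter on low counts and were tested with edgeR's quasi-likelihood test with Benjamini-Hochberg adjustment over the 11991 genes tested. Traf2 alone fell below the threshold of 0.05, while 5.8% of all tested genes were called and 3.72% were called lower. Its log2 fold change, replicates 3 and 4 over replicates 1 and 2, was -0.91 (SE 0.16, adjusted p = 0.0414), from 24.1 and 25.5 CPM in replicates 3 and 4, against 42.5 and 50.7 CPM in replicates 1 and 2. The call did not hold when any of the 4 libraries was left out, with adjusted p-values from edgeR of 0.0562 without replicate 1, 0.0683 without replicate 2, 0.228 without replicate 3 and 0.226 without replicate 4. Tnf, with 92.5 and 128.1 CPM in replicates 3 and 4, against 223.6 and 335.9 CPM in replicates 1 and 2, had a larger log2 fold change of -1.34 (SE 0.27) and an edgeR adjusted p of 0.0502. It was called in 6 of 14 settings, with adjusted p-values from 2.98e-06 with no filter on low counts to 0.258 without replicate 3, both from edgeR, and Traf2 was called in 8 of 14.

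DESeq2, which called 15.6% of all tested genes, called 4 of the 10, namely Tnf (adjusted p = 0.00013), Traf2 (0.000948), Tnfsf9 (0.00361) and Tnfrsf1b (0.031). In edgeR, Tnfrsf1b had a log2 fold change of -0.58 (SE 0.21, adjusted p = 0.145) and Tnfsf10 one of -0.68 (SE 0.21, adjusted p = 0.109). Tnfsf9 had -2.56 (SE 0.80) and Traf1 -1.56 (SE 0.61), with wide errors and edgeR adjusted p-values of 0.107 and 0.164. Leaving out 1 library gave Tnfsf9 values from -3.3 without replicate 1 to -0.80 without replicate 2, and Traf1 values from -2.18 without replicate 4 to -0.43 without replicate 2. Tnfrsf11a had -0.68 (SE 0.42, adjusted p = 0.339), which was 0.09 without replicate 1. Fas had -0.35 (SE 0.58, adjusted p = 0.728), which was 0.99 without replicate 2. The direction of Tnfrsf11a and of Fas thus rested on 1 library each.

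Tnfrsf1a had a log2 fold change of -0.23 (SE 0.19, edgeR adjusted p = 0.464), which turned to 0.04 with offsets for GC content and length and to 0.45 with limma on kallisto-layout TPM, while edgeR on kallisto-layout counts gave -0.22. On the kallisto-layout TPM scale the median of all tested genes was itself 0.32, so Tnfrsf1a stood near it. Tnfsf13b was the exception in sign, with 0.92 (SE 0.64, edgeR adjusted p = 0.389), from 0.05 without replicate 4 to 1.83 without replicate 2. In all, 9 of the 10 fold changes were negative, against 6107 of all 11991 genes tested. Of these only Traf2 was called by edgeR, and the signs of Fas, Tnfrsf11a and Tnfrsf1a turned in other settings. The median of the 10 was -0.68, beside -0.01 for all genes tested. Mitochondrial RNA and depth differed along the same split, as given above. So did the raw spike-in counts, 20989 and 23921 in replicates 3 and 4, against 32827 and 34059 in replicates 1 and 2. These counts are not scaled to depth, which was greater in replicates 3 and 4, so relative to depth the gap is wider. The kallisto-layout gene total was 1.073 and 1.062 times the RSEM-layout total in replicates 3 and 4, against 1.314 and 1.324 times in replicates 1 and 2. The part of these measures in the differences was not tested.

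**Figure D3:**
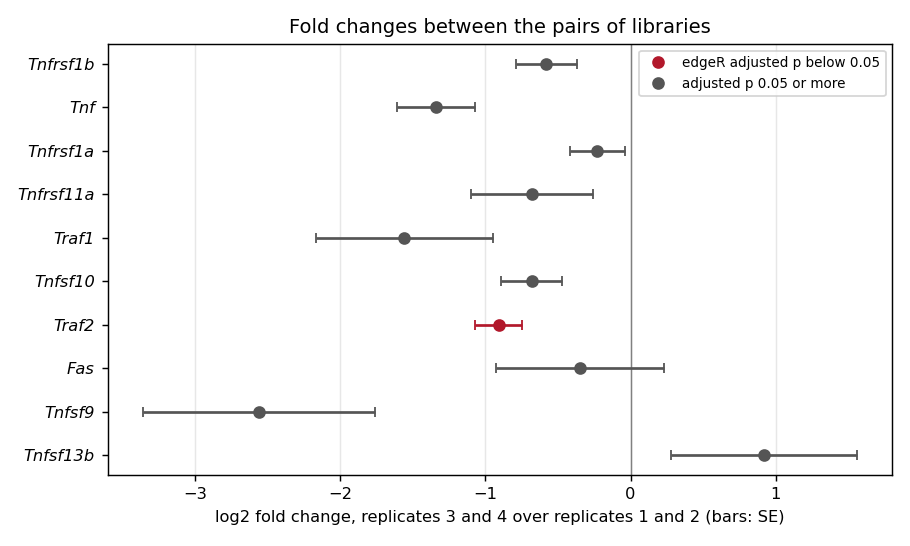
Log2 fold change of replicates 3 and 4 over replicates 1 and 2 for the 10 genes from edgeR, with bars of 1 SE. Traf2, at -0.91 and in red, is the gene with an adjusted p below 0.05, Tnfsf9 at -2.56 has the largest estimate and a wide error, and Tnfsf13b at 0.92 is the only positive one.

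Transcript composition was compared across libraries for Tnfrsf1a, whose TPM was steady in the first tables. The full-length coding transcript Tnfrsf1a-201 held 87.0% and 74.4% of the gene TPM in replicates 3 and 4, against 99.1% and 99.5% in replicates 1 and 2. The rest was mainly Tnfrsf1a-206 in replicates 3 and 4, and in replicates 1 and 2 more of it was the retained-intron Tnfrsf1a-205. Tnfrsf1a-206 had 14.3 and 30.9 TPM in replicates 3 and 4, against 0.55 and 0.23 TPM in replicates 1 and 2. Its share was 10.9% and 23.2% in replicates 3 and 4, against 0.395% and 0.176% in replicates 1 and 2. The second quantification gave it 16.4% and 22.9% in replicates 3 and 4, against 0.406% and 0.659% in replicates 1 and 2. The pairs of libraries were thus far apart in both sets of tables, and no test was run of these shares.

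Tnfrsf1a-206 is annotated as coding, with 6 exons and 885 nt, and begins inside exon 4 of the full-length transcript. Its last exon runs on through intron 9 of that 10-exon transcript. That intron is the stretch that sets it apart from the full-length transcript and is shown from the GENCODE M21 transcript sequence (GRCm38), with the first and last 2 bases in capitals.
Tnfrsf1a intron 9 (chr6:125361585-125361686, plus strand, 102 nt): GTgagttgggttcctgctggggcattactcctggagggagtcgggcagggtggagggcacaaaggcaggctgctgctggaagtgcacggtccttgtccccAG
Quantification assigns reads over the shared exons to either transcript, and whether reads fall in these 102 nt cannot be read from the tables.

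Traf2, Fas and Tnfrsf11a each had the same leading transcript in all 4 libraries. Traf2-202, coding, held 62.2% and 58.0% of the Traf2 TPM in replicates 3 and 4, against 75.4% and 69.4% in replicates 1 and 2, and the rest was almost all the other coding transcript. Its mean share was 66.3% ± 7.68 (SD, n = 4), or 79.0% in the second quantification. The leading Fas transcript, coding and 1481 nt long, held a mean of 82.5% ± 7.29, or 71.8% in the second quantification. Tnfrsf11a kept the most even composition of the multi-transcript genes shown, as Tnfrsf11a-201 held between 79.2% and 80.9% and the retained-intron transcript Tnfrsf11a-203 between 16.6% and 19.2%. For Traf1, with 9 transcripts, the leading one was a coding transcript of 2069 nt in the first tables (33.1% ± 12.2) and another of 2325 nt in the second (28.7%), so its composition was not settled by these files.

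**Figure D4:**
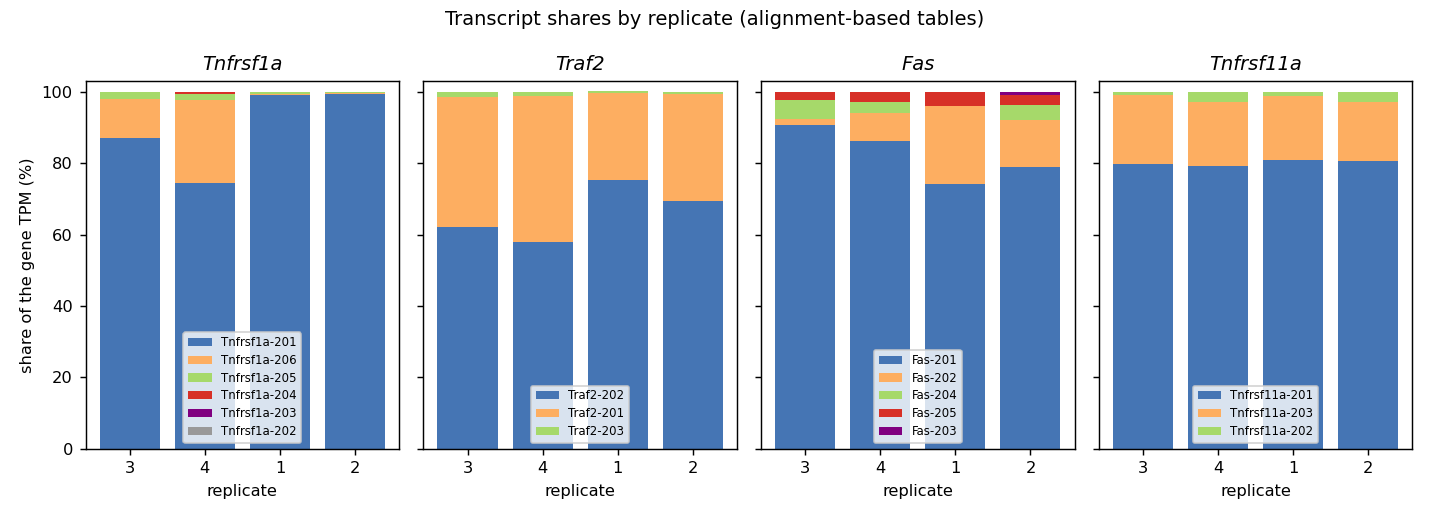
Share of the gene TPM (%) held by each annotated transcript of Tnfrsf1a, Traf2, Fas and Tnfrsf11a in replicates 3, 4, 1 and 2, stacked to 100.0%. Tnfrsf1a-206 (orange in the first panel) is visible in replicates 3 and 4, at 10.9% and 23.2%, and almost absent in replicates 1 and 2, whereas the shares of Tnfrsf11a hardly vary.

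The genes with the profile most like each of the 10 over the 4 libraries were taken by the root mean square difference of centred log2(CPM + 1) among 11990 other genes. For Tnf these were Edn1 (difference 0.041), Nfkbia (0.0594) and Slc25a33 (0.086). Nfkbia, the inhibitor of NF-kB that is itself an NF-kB target, also stood at nearly the same level as Tnf, with 94.5 and 119.8 TPM in replicates 3 and 4, against 202.1 and 361.3 TPM in replicates 1 and 2. Edn1, which encodes endothelin, was far lower, at 1.14 and 1.99 TPM in replicates 3 and 4, against 3.80 and 7.34 TPM in replicates 1 and 2. The added 1 CPM compresses such low genes, so a small difference there is a weaker likeness.

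For Tnfsf9 the nearest were the chemokine gene Cxcl1 (0.0956), the heat shock gene Hspa1a (0.166) and the stress cytokine gene Gdf15 (0.195). Cxcl1 stood at 0.58 and 1.89 TPM in replicates 3 and 4, against 1.96 and 19.4 TPM in replicates 1 and 2, so it was also high in replicate 2. For Traf1 the nearest were Trib3 (0.0957), Slc2a6 and Slc7a11. For Fas they were Ip6k3 (0.0549), Ankrd24 and P3h3. For Tnfrsf11a they were Cebpa (0.0488), a myeloid transcription factor gene, Tenm4 and Mtus1. Cebpa had 25.7 and 18.1 TPM in replicates 3 and 4, against 43.1 and 22.6 TPM in replicates 1 and 2.

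The nearest of Tnfrsf1a were Commd10 (0.00817), Raly and Sh2b3, and those of Tnfrsf1b were Cenpw (0.0128), Fbxo6 and Ppib. Cenpw stood at only 0.74 and 0.56 TPM in replicates 3 and 4, against 1.63 and 1.38 TPM in replicates 1 and 2. Its edgeR log2 fold change was -1.15, beside -0.58 for Tnfrsf1b, so with the added 1 CPM its likeness is weaker than the difference reads. For Tnfsf10 they were Ap5b1 (0.0184), Fen1 and Slx4ip. For Traf2 they were Ric8a (0.0162), Klf16 and Cyba, a subunit of the phagocyte oxidase. For Tnfsf13b they were Gm14288 (0.0866), Slc24a5 and Fam198b. For genes well above the added 1 CPM, a difference this small over 4 libraries says only that the profiles are alike.

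The rest of the superfamily was mostly quiet among ligands. Of 14 other TNF superfamily ligand genes, 4 averaged at least 1 TPM and 4, Cd70, Tnfsf11, Cd40lg and Eda, had no count in any library. Tnfsf12, which encodes TWEAK, was the most abundant of them at 37.9 and 52.4 TPM in replicates 3 and 4, against 29.3 and 46.4 TPM in replicates 1 and 2. Tnfsf13, which encodes APRIL, averaged 11.3 TPM and Tnfsf15 6.12 TPM. Tnf thus stood above every other ligand of the family measured, by mean TPM. Of the 4 that were tested between the pairs of libraries, 0 were called by edgeR and 0 by DESeq2. Of all tested genes, edgeR called 5.8% and DESeq2 15.6%. In edgeR, 0 had an unadjusted p below 0.05, against 3415 of all 11991 genes tested.

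Of 24 other receptor genes, 12 averaged at least 1 TPM and 3 had no count. Tnfrsf14, a receptor that binds LIGHT and BTLA, was the most abundant in TPM, between Tnfrsf1b and Tnfrsf1a by mean. It had 168.4 and 269.3 TPM in replicates 3 and 4, against 124.9 and 149.9 TPM in replicates 1 and 2. Its counts, 2060 and 2969 in replicates 3 and 4, against 1211 and 1684 in replicates 1 and 2, were below those of Tnfrsf1a in each library. From counts its log2 fold change was -0.26 (SE 0.16, edgeR adjusted p = 0.336), opposite in sign to its TPM. The part of length scaling was not tested. Cd40, a receptor for T cell help, averaged 83.0 TPM, and Ltbr, the lymphotoxin beta receptor, averaged 46.8 TPM. Of the 12 receptors tested, 1 was called by edgeR, against 5.8% of all tested genes, and it was lower. It was also the 1 called by DESeq2, which called 15.6% of all tested genes. Of the 12 receptors, 3 had an unadjusted p below 0.05 in edgeR, against 3415 of all 11991 genes tested. Cd40 had a log2 fold change of -1.15 (SE 0.23, edgeR adjusted p = 0.0493), a call that did not hold when any of the 4 libraries was left out (adjusted p from 0.071 to 0.225). Among 5 other TRAF genes 0 of the 4 tested were called by edgeR, beside the same 5.8% of all tested genes. Of the 4, 1 had an unadjusted p below 0.05 in edgeR. That gene, Traf3, named after its values were seen, was called lower by DESeq2. Traf7 averaged 38.9 TPM, Traf5 10.2 TPM and Traf6, the TRAF of Toll-like receptor signalling, 9.00 TPM.

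**Figure D5:**
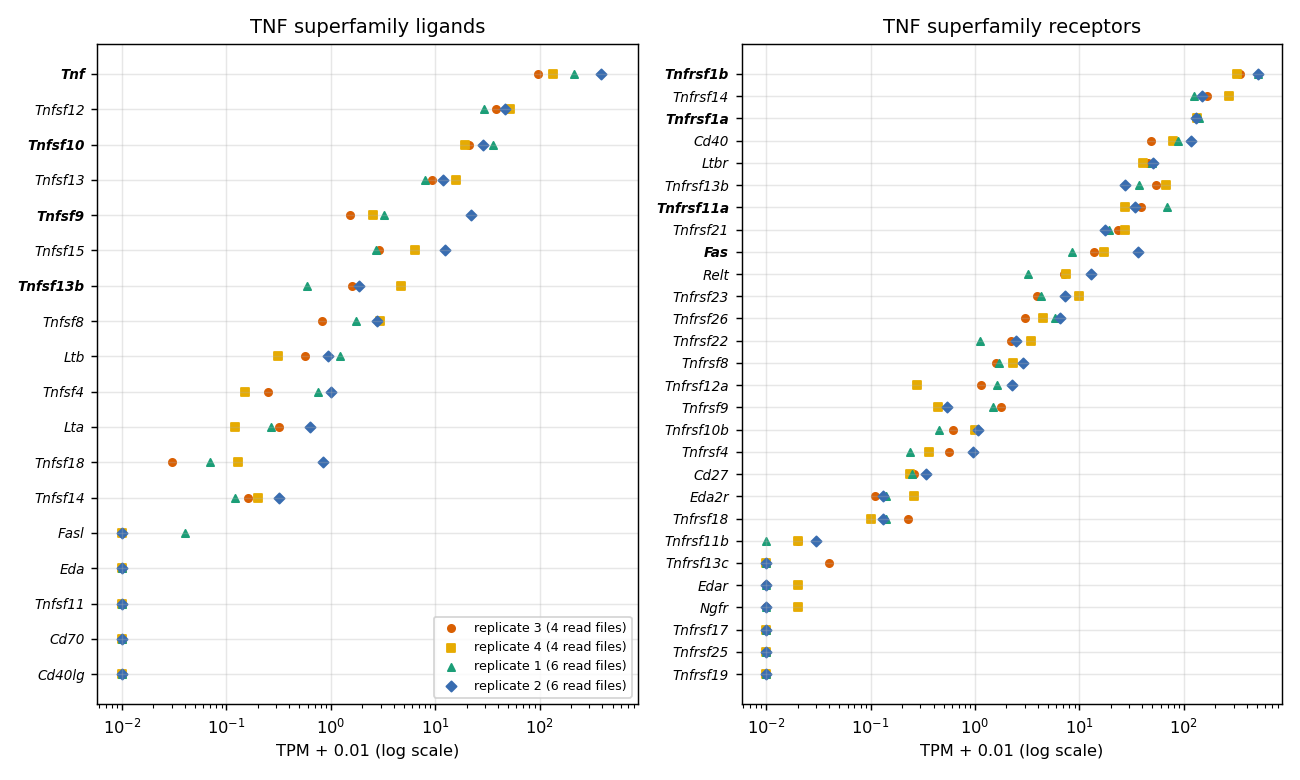
TPM + 0.01 (log scale) of the TNF superfamily ligands (left) and receptors (right) in replicates 3, 4, 1 and 2, ordered by mean, with the genes described here in bold. Tnf leads the ligands and Tnfrsf1b the receptors, and genes at the left edge had no count or almost none.

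RNA of the machinery below the receptors was measured throughout. All 18 genes of the TNF receptor signalling and death complexes averaged at least 1 TPM, led by Cflar (197.1 TPM), an inhibitor of caspase activation at death receptors, Mlkl (149.1 TPM), the executor of necroptosis, and Casp8 (116.8 TPM). Of the 18 tested, 1 was called by edgeR, against 5.8% of all tested genes, and it was lower. In edgeR, 6 of the 18 had an unadjusted p below 0.05, against 3415 of all 11991 genes tested. DESeq2 called 2 higher and 1 lower, while it called 15.6% of all tested genes. The 2 higher ones were Ripk1 and Tab2, named after their values were seen, with edgeR log2 fold changes of 0.60 and 0.70 (SE 0.17 and 0.18, adjusted p = 0.0843 and 0.0752). Tradd, the adaptor that binds the death domain of TNFR1, had 7.98 and 7.02 TPM in replicates 3 and 4, against 18.2 and 16.2 TPM in replicates 1 and 2. Its log2 fold change was -1.29 (SE 0.23, edgeR adjusted p = 0.0423). The call held without replicate 2 but not without replicate 1 (adjusted p = 0.0816), replicate 3 (0.218) or replicate 4 (0.243), nor with offsets for GC content and length (0.0882), all from edgeR.

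Of 5 genes linked to the shedding of TNF and its receptors or to its control, 3 averaged at least 1 TPM. Adam17, the protease that cuts TNF from the surface, averaged 70.2 TPM and Adam10 45.1 TPM. Rhbdf2, which encodes the cofactor that brings ADAM17 to the surface, had 20.1 and 21.4 TPM in replicates 3 and 4, against 38.9 and 46.5 TPM in replicates 1 and 2. Of the 3 tested, it was the 1 called by edgeR (5.8% of all tested genes called) and by DESeq2 (15.6%), and it was lower. Its log2 fold change was -1.01 (SE 0.14, edgeR adjusted p = 0.0326). It was also the 1 with an unadjusted p below 0.05 in edgeR, against 3415 of all 11991 genes tested. The edgeR adjusted p was 0.0546 without replicate 1, 0.206 without replicate 3 and 0.222 without replicate 4.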

How the data were processed

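PolyA RNA of 4 libraries of 1 group was quantified. Per the file headers and the deposited notes, the deposited expected counts and TPM of genes and transcripts came from a transcriptome alignment (RSEM column layout), and a further transcript table of estimated counts and TPM came directly from the read files (kallisto column layout). All were made on mm10 with GENCODE M21. No source used here names the programs or versions. The authors' TPM are scaled within a library, and the deposited expected counts are not normalized. Effective lengths, another deposited column, served to scale an alternative level.

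Totals and tests excluded 97 rows of spike-ins and 26248 of tRNAs. A count of 0 allows up to 3 counts, or 0.0614 and 0.0525 CPM in replicates 3 and 4, against 0.117 and 0.110 CPM in replicates 1 and 2, for counting error only. Expected counts were rounded and tested by the quasi-likelihood method of edgeR 4.0.16 (R 4.3.3), scaled by TMM, on genes passing filterByExpr at a minimum count of 10, with a Benjamini-Hochberg threshold of 0.05. The SE was taken from the fold change and the root of its F statistic. DESeq2 1.42.0, limma 3.58.1 on TPM, other normalizations, filters and tables, GC and length offsets and leaving out each library were alternatives. The edgeR step was tested on simulated counts with known changes. Pairs used log2 of TPM with a pseudocount of 1 and an exact sign-flip permutation test. Named genes were the 10 members, the 3 of highest mean TPM and any called in each related list, and the 3 nearest profiles. Motifs were searched in the 250 bases before each start. Searching also the 50 bases after it added no member, and TATAAA was added after the data were seen. The members and lists were chosen with earlier results of these data known. Tables and figures used Python 3.11.15, pandas 2.3.3 and matplotlib 3.10.9.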

Additional observations from a re-analysis of the deposited data

Results flagged for a closer look

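Of the 10 genes, 1 had a library far from the other 3 in TPM. In Tnfsf9, the gap between replicate 2 and the next library made up 0.917 of the whole range of the 4 libraries, which stood at 1.52 and 2.53 TPM in replicates 3 and 4, against 3.23 and 22.2 TPM in replicates 1 and 2. Chance flags about 1 in 20 groups, and 10 genes were looked at.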

How the results depend on the processing

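No paired analysis was possible because the series has 1 group. The 696 of 11991 tested genes called between the pairs of libraries became 2569 of 22006 with no filter on low counts and 1866 of 11991 with DESeq2. With limma they became 1654 of 11984 on kallisto-layout TPM and 821 of 11991 on the first TPM. The number called was 710 of 11991 with RLE size factors, 729 of 13264 with the filter by pair of libraries and 599 of 11984 with GC and length offsets. It was 177 without replicate 1, 671 without replicate 2, and 0 without replicate 3 or without replicate 4, where 1955 and 1966 genes had an unadjusted p below 0.05 in edgeR. The 1 of the 10 genes called became 6 with no filter, 4 with DESeq2, 2 with RLE size factors, with the filter by pair of libraries or with GC and length offsets, 0 with limma on either TPM, and from 0 to 2 when 1 library was left out. Without replicate 1, Tnf and Tnfsf9 were called and Traf2 was not. Without replicate 2, the gene called was Tnfsf10, with a log2 fold change of -0.92. The genes below without overlap, 5 in TPM, were 3 in kallisto-layout TPM. Directions turned for Fas (from -1.0 without replicate 1 to 0.99 without replicate 2, and 0.09 with limma on kallisto-layout TPM), Tnfrsf11a (from -1.18 without replicate 2 to 0.09 without replicate 1) and Tnfrsf1a (0.04 with offsets, 0.45 with limma on kallisto-layout TPM). The cause was not tested. All 30 recomputed pair ratios kept their direction. Of the mean levels recomputed from kallisto-layout TPM or from CPM per effective length, only that of Tnfrsf1a moved by over 1 SD, to 118.6 TPM in the kallisto layout. Leaving out 1 library moved 3 means by over 1.5 times: without replicate 2, Tnfsf9 to 2.43 and Traf1 to 20.8 TPM, and without replicate 4, Tnfsf13b to 1.33 TPM. The filter by pair, limma on kallisto-layout TPM and the 2 recounts of genes without overlap were chosen after seeing the data. Tnfsf13b, with as few as 18 counts in a library, is the gene whose values depth limits most.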
